A study of Rattus norvegicus with 45 samples.

Results

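Fos, Egr1, Junb, Arc and Nr4a1 are immediate early genes, and they are 5 of the 32883 genes in the deposited table of ventral tegmental area (VTA) RNA and 5 of the 22570 genes that passed the filter on low values. They were chosen by identifier (ENSRNOG00000008015 for Fos, ENSRNOG00000019422 for Egr1, ENSRNOG00000042838 for Junb, ENSRNOG00000043465 for Arc and ENSRNOG00000007607 for Nr4a1). No cut on their values was applied, but earlier results of these data were known when they were chosen. The deposited table carries Ensembl identifiers only, and the names were given with the identifiers. The 5 genes moved together from rat to rat once group means were removed, and none of them passed the test in any comparison between groups.

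Over 10 d male Sprague-Dawley rats took heroin or saline by self-administration, were given a virus into the VTA on day 11 and stayed abstinent for 30 d, after which punches of the VTA were sequenced as polyA-selected RNA with 1 library per rat. The virus was an empty vector, a vector for H3.3 WT, or one for H3.3Q5A, a histone H3.3 in which glutamine 5 is replaced by alanine so that dopamine cannot be attached there. By the study's account H3.3Q5A blocks every modification of that glutamine, and other monoamine marks gave no appreciable signal in VTA beside the dopamine mark. After heroin, 8 rats had the empty vector, 8 had H3.3Q5A and 7 had H3.3 WT, and after saline each of the 3 vectors had 7 rats. The saline groups took saline in the same sessions, every rat of all 6 groups had the surgery and a virus with a GFP tag, and no group was without virus or abstinence. The study's methods describe AAV2 vectors and the series' design text describes lentiviral ones, and no source used here names a promoter that would limit expression to 1 cell type. The punches were dissected under GFP illumination and hold all the cell types of the tissue, so that fewer cells of a type and less RNA per cell cannot be told apart. For 1 more saline library the title says H3.3Q5A where the treatment label says H3.3 WT, and it entered no group.

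Reads on genes ranged from 24308953 to 71104049 per rat with a median of 42574786, and the group medians ran from 34513499 in saline H3.3Q5A to 55197003 in saline empty. Rats are named below by their group and the number in their label. Numbers 13 and 21 each occur in a pair of groups (saline empty and heroin empty for 13, heroin empty and heroin H3.3Q5A for 21), and the labels do not say what a shared number means. The tissue label could be checked only in part. Marker names came from the readable part of the study's own table of differentially expressed (DEx) genes. No identifier of the 11 listed dopamine neuron markers is paired with a name in the sources used here. Of 10 listed oligodendrocyte markers 6 were named, and the highest, Mbp, had a mean value of 18.63 on the log2-like scale described below. Of 6 listed pituitary markers 2 were named, Tshb and Cga. On this scale, where 5.73 stands for 0 reads, their mean level ran from 6.14 to 12.12 across the saline empty rats. The highest rat outside that group had 9.55 (saline H3.3 WT), while the range in heroin H3.3 WT was 6.10 to 6.90. Whether any punch held tissue from outside the VTA was not tested. The H3.3 carried by the vectors was not analysed here.

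Immediate early genes are transcribed within minutes of synaptic activity or growth factor signaling without the need for newly made protein, and their transcripts decay quickly. Fos and Junb encode subunits of the AP-1 transcription factor, Egr1 a zinc finger transcription factor and Nr4a1 an orphan nuclear receptor, whereas Arc encodes a protein that acts at synapses, where it promotes removal of AMPA receptors. Because they follow recent activity, they are widely used as markers of active neurons. Signals from calcium and MAP kinases reach them through CREB, which binds the cAMP response element (CRE), and through SRF with its ternary complex partners, which binds the CArG box.

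Promoters of 3 of the 5 genes, Egr1, Junb and Nr4a1, were found in the RefSeq promoter table of build GRCr8, and the 250 bases before each start are shown because the members moved together. Capitals mark exact matches on either strand to the CArG box, searched as CCWWWWWWGG with W for A or T, or to the CRE half-site TGACG. The half-site reads CGTCA where it lies on the other strand. The windows lie on the plus strand at chr18:26736828-26737077 for Egr1, chr19:40080876-40081125 for Junb and chr7:134259888-134260137 for Nr4a1.
Egr1: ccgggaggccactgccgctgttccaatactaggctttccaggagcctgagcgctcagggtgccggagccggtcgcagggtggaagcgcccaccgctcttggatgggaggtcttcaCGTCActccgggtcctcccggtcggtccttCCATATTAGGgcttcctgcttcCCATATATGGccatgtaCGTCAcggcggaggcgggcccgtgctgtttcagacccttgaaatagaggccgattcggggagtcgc
Junb: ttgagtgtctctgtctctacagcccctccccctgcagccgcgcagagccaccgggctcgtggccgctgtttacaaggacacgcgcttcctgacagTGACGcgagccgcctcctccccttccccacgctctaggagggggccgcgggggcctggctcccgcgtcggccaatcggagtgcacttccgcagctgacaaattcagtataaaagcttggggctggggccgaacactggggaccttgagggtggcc
Nr4a1: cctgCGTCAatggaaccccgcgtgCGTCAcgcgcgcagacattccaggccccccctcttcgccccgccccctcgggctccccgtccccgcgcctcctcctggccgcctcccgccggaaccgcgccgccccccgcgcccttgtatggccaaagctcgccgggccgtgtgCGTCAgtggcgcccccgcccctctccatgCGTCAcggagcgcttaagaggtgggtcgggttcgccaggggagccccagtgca
Counted from the start, the Egr1 window had CArG boxes beginning at -105 and -83 and TGACG matches beginning at -135 and -66. Junb had 1 TGACG match beginning at -155 and no CArG box, and Nr4a1 had 4 TGACG matches beginning at -246, -226, -82 and -53 and no CArG box. Of all 33469 promoter windows of the same length, 1.5% held a CArG box and 18.2% held TGACG. At least a pair of matches was found in 0.0209% of windows for the CArG box and in 3.98% for TGACG. The full CRE TGACGTCA, present in 1.59% of windows, and the EGR site GCGTGGGCG, present in 0.478%, had no match in the 3 windows. The full CRE contains the half-site on both strands. These are exact matches of letters and were not tested for binding. Stretches with a mismatch were not marked, and bases outside the 250 were not searched, so a window without a match does not show that the gene lacks a site.

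The values below are normalized counts, obtained by inverting the variance-stabilizing transformation (VST) of the deposited values, and they are followed by means and differences on the VST scale, which is close to log2. Levels are compared between groups for 1 gene at a time and not between genes, since transcript length was not taken into account. The lowest number of reads behind any value was 262, for Arc in a heroin empty rat, where counting error alone gives an SD of 0.0891 on the log2 scale.

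Fos, the AP-1 subunit most often used to mark active neurons, ranged in normalized counts from 801 to 1272 with a median of 968.2 in saline empty, from 516 to 1532 with a median of 683 in saline H3.3 WT, and from 456 to 1216 with a median of 914 in saline H3.3Q5A rats. In the heroin groups Fos ranged from 744 to 1481 with a median of 882 for empty, from 571 to 1149.7 with a median of 796 for H3.3 WT, and from 397 to 1174 with a median of 785 for H3.3Q5A. Every group overlapped every other, and the mean VST values fell in the order saline empty (10.08), heroin empty (10.01), H3.3 WT after heroin (9.84), H3.3Q5A after heroin (9.82), H3.3Q5A after saline (9.80) and H3.3 WT after saline (9.71). No gap between neighbours in this order exceeded the smaller SD of the groups beside it.

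Junb, the AP-1 subunit that can restrain Jun, ranged in normalized counts from 744 to 1376 with a median of 1079 in saline empty, from 578 to 1996 with a median of 788 in saline H3.3 WT and from 612 to 1197 with a median of 915 in saline H3.3Q5A rats. After heroin Junb ranged from 549 to 1263 with a median of 821 for empty, from 532 to 1382 with a median of 807 for H3.3 WT and from 564 to 1605 with a median of 1128 for H3.3Q5A. Heroin H3.3Q5A had the highest mean, 10.23 ± 0.409 (SD, n = 8), and heroin empty the lowest, 9.83 ± 0.330 (SD, n = 8), and the ranges overlapped in every pair of groups compared. In heroin H3.3Q5A the lowest rat, rat 40, had a VST value of 9.38 and the other 7 rats lay between 10.1 and 10.74.

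Egr1, a transcription factor whose targets include synaptic genes, ranged in normalized counts from 1406 to 4580.2 with a median of 2169 in saline empty, from 1109.7 to 7903 with a median of 1556 in saline H3.3 WT and from 1082 to 3011 with a median of 2531 in saline H3.3Q5A rats. After heroin the Egr1 range was 1387 to 4583 with a median of 1876 for empty, 1566 to 4785 with a median of 1927 for H3.3 WT and 1268 to 4288 with a median of 2399 for H3.3Q5A. The 6 group means spanned 0.39 on the VST scale, less than the smallest SD of any group, 0.523, with heroin H3.3Q5A highest and saline H3.3Q5A lowest.

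Nr4a1, also known as Nur77, ranged in normalized counts from 656 to 1885 with a median of 1211 in saline empty, from 475 to 2582 with a median of 843 in saline H3.3 WT and from 509 to 1298 with a median of 1091 in saline H3.3Q5A rats. In heroin rats the Nr4a1 range was 537 to 1683 with a median of 849.8 for empty, 500.2 to 1205 with a median of 797 for H3.3 WT and 811 to 1497 with a median of 1160.2 for H3.3Q5A. Again heroin H3.3Q5A had the highest mean, 10.26 ± 0.312 (SD, n = 8), and heroin H3.3 WT the lowest, 9.88 ± 0.389 (SD, n = 7).

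Arc, the synaptic effector among the 5, ranged in normalized counts from 399.7 to 2292 with a median of 644 in saline empty, from 461 to 4039.6 with a median of 585 in saline H3.3 WT and from 492 to 1459 with a median of 761 in saline H3.3Q5A rats. In the heroin groups Arc ranged from 348 to 2177 with a median of 619.6 for empty, from 416 to 1946 with a median of 822 for H3.3 WT and from 735 to 1960.2 with a median of 1217 for H3.3Q5A. The lowest heroin H3.3Q5A rat lay above the median of each of the saline empty, saline H3.3 WT and heroin empty groups, but the highest rats of those groups exceeded the highest heroin H3.3Q5A rat. The step from heroin H3.3Q5A to the next group, saline H3.3Q5A, was 0.511 on the VST scale and was the 1 gap among neighbouring groups, over all 5 genes, that exceeded the smaller of the neighbouring SDs.

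**Figure D1:**
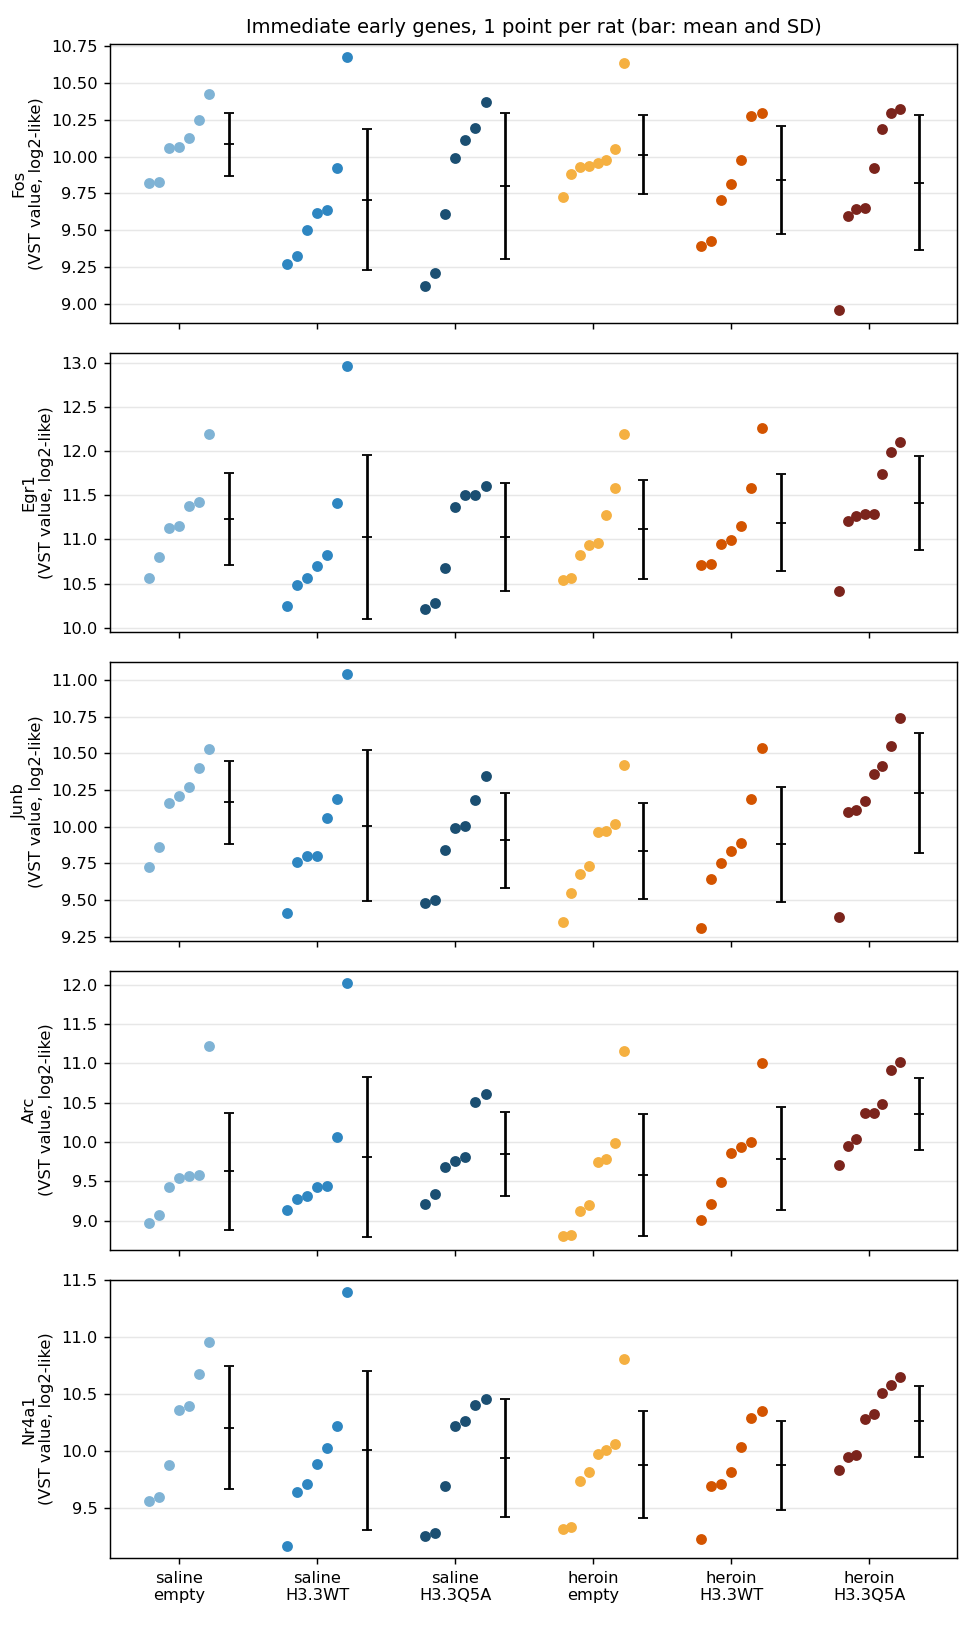
VST value (log2-like, vertical axis) of each gene in each of the 44 rats by group (horizontal axis), with 1 point per rat sorted within the group and a bar for the mean and SD. The groups overlap for every gene, and saline H3.3 WT rat 23 stands at the top of its group in all 5 panels, for Arc at 12.02 against 9.13 to 10.07 in the other 6 rats.

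Within a group the genes differed between rats by far more than most genes at their level. The highest rat exceeded the lowest 8.77-fold for Arc and 7.12-fold for Egr1 in saline H3.3 WT, and 1.59-fold for Fos in saline empty, which was the smallest of the 30 ratios. After the group means were removed the SD was 0.393 for Fos, 0.630 for Egr1, 0.384 for Junb, 0.717 for Arc and 0.497 for Nr4a1. Among the 1000 genes nearest in mean value these SDs stood at percentiles of 95.9 for Junb to 99.6 for Arc, and the median SD of such genes was 0.123 to 0.137.

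The question of whether the 5 genes vary together was asked on the deviation of each rat from its group mean, so that differences between groups could not contribute. All 10 pairs were positively correlated over the 44 rats, with a mean Pearson's r of 0.835. The closest pair was Egr1 and Arc, with r = 0.915 and Spearman's rho = 0.852, and the loosest was Fos and Arc, with r = 0.689 and rho = 0.615. Each r had a permutation p of 1e-05, the smallest that 100000 two-sided permutations of the rats within groups can give, and 1e-05 after Benjamini-Hochberg adjustment over the 10 pairs. For rho the permutation p was 3e-05 for Fos and Arc and 1e-05 for the other pairs, with adjusted values of 3e-05 and 1.11e-05. Without the 2 rats farthest from the median of the first gene of each pair, r was 0.690 to 0.872.

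Fos was the member that followed the others least: its r was 0.863 with Egr1, 0.832 with Junb, 0.729 with Nr4a1 and 0.689 with Arc. The remaining pairs had r = 0.894 for Egr1 and Junb, 0.877 for Egr1 and Nr4a1, 0.864 for Junb and Nr4a1, 0.864 for Arc and Nr4a1, and 0.826 for Junb and Arc. Of the variance of the 5 standardized genes, 86.9% lay on a single axis.

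**Figure D2:**
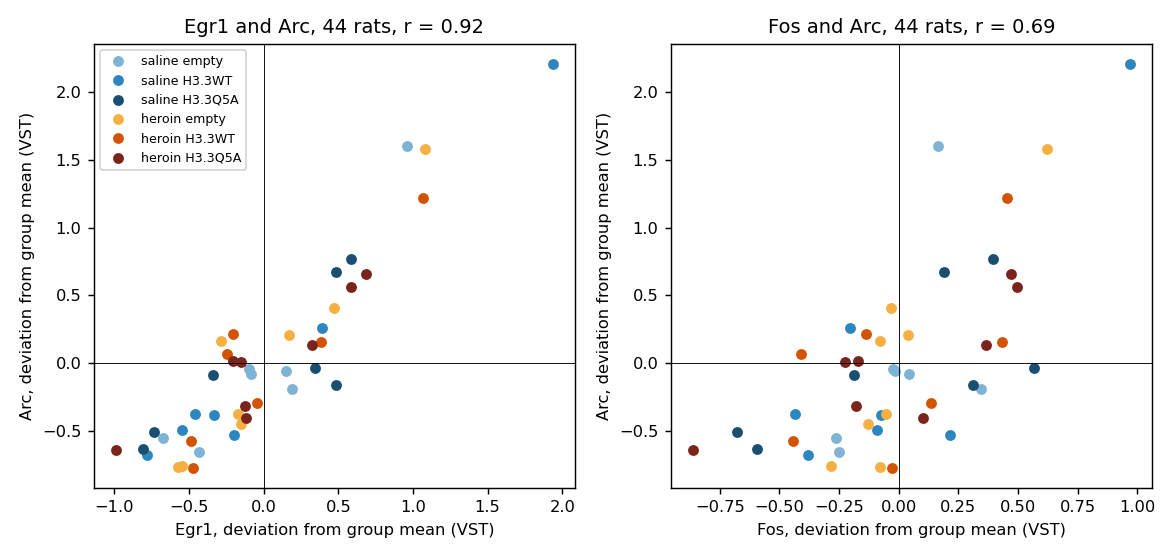
Deviation of each of the 44 rats from its group mean (VST scale, log2-like) for Egr1 against Arc on the left and Fos against Arc on the right, with 1 point per rat colored by group. The rats follow a single rising band, tighter for Egr1 and Arc (r = 0.92) than for Fos and Arc (r = 0.69).

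Set against all other genes as a description, Arc ranked 1 of 22569 genes by its r with Egr1 and Egr1 ranked 1 by its r with Arc, and Junb and Nr4a1 followed as 2 and 3 for Egr1. The 99th percentile of r with the 22565 genes outside the 5 was 0.429 for Fos, 0.508 for Egr1, 0.511 for Junb, 0.514 for Arc and 0.583 for Nr4a1, so every r among the 5 lay above it. Arc was lowest among the partners of Fos, at rank 6, and Fos ranked 46 by its r with Arc.

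The same rats carried the extremes. Saline H3.3 WT rat 23 and heroin empty rat 21 were highest of their groups in all 5 genes, and heroin H3.3Q5A rat 40 was lowest in all 5. Saline empty rat 42 and heroin H3.3Q5A rat 26 were highest in Egr1, Junb, Arc and Nr4a1, and heroin H3.3 WT rat 3 in Fos, Egr1, Junb and Arc. Without saline H3.3 WT rat 23 the mean r over the 10 pairs was 0.787, the lowest of the 44 values obtained by leaving out each rat.

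**Figure D3:**
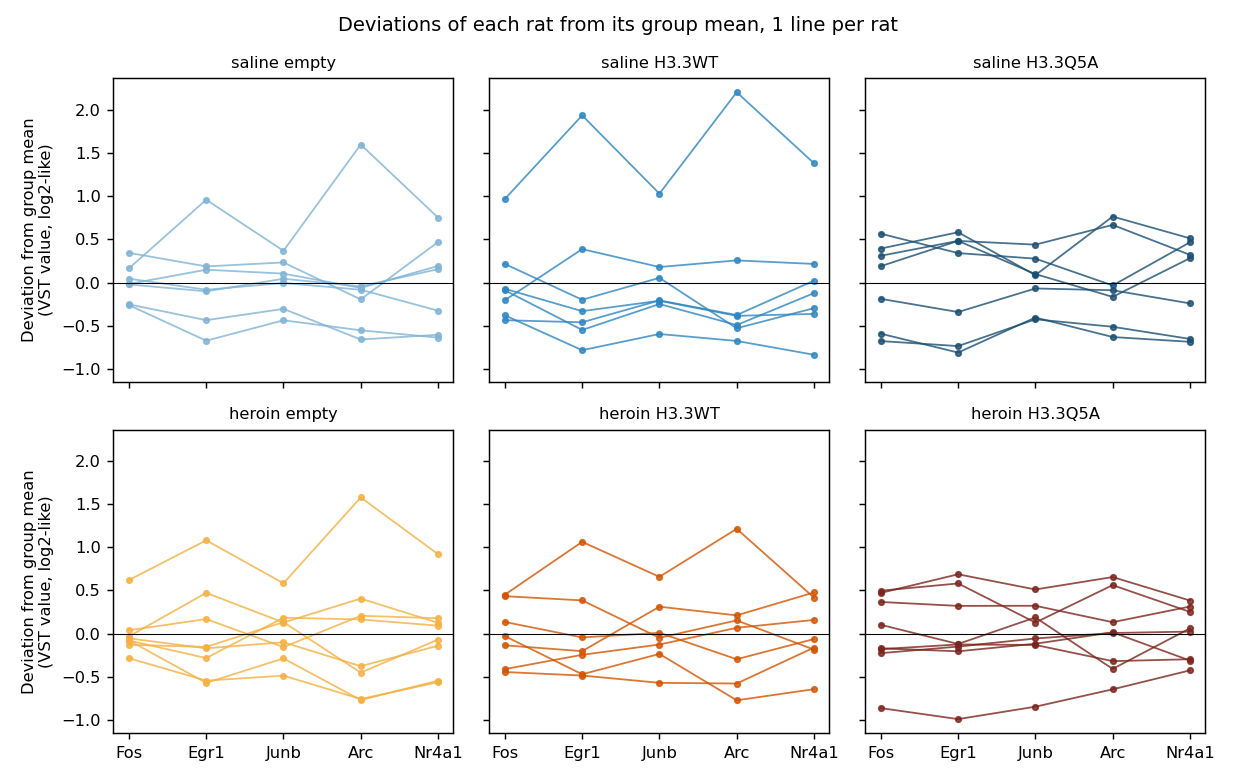
Deviation of each rat from its group mean (VST scale, vertical axis) for the 5 genes (horizontal axis), with 1 line per rat and 1 panel per group. Lines above 0 for 1 gene are mostly above 0 for the others, and the line of saline H3.3 WT rat 23 runs above the rest of its group throughout.

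Within single groups the mean r over the 10 pairs was 0.827 for the empty vector, 0.866 for H3.3Q5A and 0.915 for H3.3 WT after saline, and after heroin it was 0.888 for the empty vector, 0.872 for H3.3Q5A and, the lowest, 0.664 for H3.3 WT. In that group Fos and Nr4a1 had r = 0.0708 and Egr1 and Nr4a1 r = 0.481 over 7 rats. Whether heroin H3.3 WT differs from the other groups in this respect was not tested. Heroin rats alone gave a mean r of 0.796 and saline rats alone 0.870.

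Values that could move with sequencing or tissue composition were set beside these correlations as descriptions over the 44 rats. The mean deviation of the 5 genes had r = 0.0875 with the log2 number of reads on genes, and the mean r over pairs was 0.835 with the read number removed. With the 3 leading axes of the deviations of all tested genes, its absolute r was 0.188, 0.344 and 0.0786 in order. For the second axis the absolute r was 0.155 for Fos, 0.286 for Egr1, 0.393 for Junb, 0.274 for Arc and 0.514 for Nr4a1. With 3 residual factors removed the mean r over pairs was 0.850. Marker names came from the study's own table of DEx genes, so the markers were in part chosen on the same samples. Levels averaged over the named markers had r with the mean of the 5 genes of -0.240 for the 6 named of 10 oligodendrocyte markers, -0.183 for 4 of 5 oligodendrocyte precursor markers and -0.153 for 1 of 8 microglia markers (Cx3cr1). The r was 0.0952 for 2 of 7 endothelial markers, 0.147 for 3 of 9 mural and meningeal markers and 0.0570 for 3 of 4 red blood cell markers. Neuron markers were represented by 1 of 10, Eno2, with r = 0.0946, glutamate neuron markers by 1 of 3, Slc17a8, with r = 0.0136, and pituitary markers by 2 of 6, with r = 0.0530. None of the listed dopamine neuron, GABA neuron, astrocyte and ependymal markers had a named identifier, and the part of cell composition in the shared variation was not tested.

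Comparisons between groups used limma over all 22570 genes with Benjamini-Hochberg adjustment, and a gene was called when its adjusted p was under 0.05 and its log2 fold change beyond 0.2 in either direction. Of the 55 tests of the 5 genes in 11 comparisons, 0 were called and 3 had an unadjusted p under 0.05. Over all genes the share with such a p was 5.66% to 28.5% by comparison. The 3 fell in H3.3Q5A vs. empty after heroin and in the interaction against empty, where the share was 19.6% and 28.5%. With voom on the recovered reads 0 were called and 5 had an unadjusted p under 0.05. Several comparisons share a group of rats and so are not independent of each other.

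Heroin vs. saline was asked within each vector, to see what 30 d of abstinence from heroin left behind. In empty rats 0 of 5 genes were called where 0.155% of all genes were, and the median log2 fold change of the 5 was -0.121 beside -0.00713 over all genes. The median over all genes lay between -0.0115 and 0.0186 in every comparison. The 5 genes move together and vary more than most genes at their level, so their median can lie farther from 0 without a group difference. In no comparison were the medians tested against each other. Junb had -0.33 (SE 0.190, 95% interval -0.71 to 0.05, adjusted p = 0.362) and 1 of 8 heroin empty rats lay above the saline empty mean. For Nr4a1 the difference was -0.32 (adjusted p = 0.526), for Egr1 -0.12 (adjusted p = 0.887), for Fos -0.07 (adjusted p = 0.894) and for Arc -0.05 (adjusted p = 0.966). The 95% interval for Arc ran from -0.76 to 0.66. In H3.3 WT rats 0 of 5 were called beside 2.75% of all genes, with a median of -0.0242 against 0.0013. The estimates were 0.16 for Egr1, 0.13 for Fos, -0.02 for Arc, -0.13 for Junb and -0.13 for Nr4a1, with adjusted p from 0.80 to 0.986.

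In H3.3Q5A rats heroin vs. saline gave 0 of 5 calls beside 0.505% of all genes, and all 5 estimates were above 0, with a median of 0.321 against 0.0101 over all genes. The log2 fold change was 0.51 for Arc (SE 0.354, adjusted p = 0.439), 0.39 for Egr1 (SE 0.311, adjusted p = 0.516), 0.32 for Junb (SE 0.190, adjusted p = 0.351) and 0.32 for Nr4a1 (SE 0.245, adjusted p = 0.496). In each of these 4 genes, 7 of 8 heroin H3.3Q5A rats lay above the saline H3.3Q5A mean. The rat below was rat 40 in all 4, so these are not 4 separate observations. Fos had 0.02 (SE 0.195, adjusted p = 0.972), with 4 of 8 rats above.

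H3.3Q5A vs. the control vectors in heroin rats asks what the H3.3Q5A vector changes during heroin abstinence. No measure of dopaminylation in these rats was used here. Against empty, 0 of 5 genes were called beside 3.21% of all genes, and the median of the 5 was 0.379 against 0.00664. Arc had the largest estimate of the 5, a log2 fold change of 0.78 (SE 0.342, 95% interval 0.09 to 1.47), with all 8 heroin H3.3Q5A rats above the heroin empty mean, an unadjusted p of 0.0278 and an adjusted p of 0.191. Junb had 0.39 (SE 0.184, 95% interval 0.02 to 0.76, unadjusted p = 0.0377, adjusted p = 0.221), with 7 of 8 rats above. The other estimates were 0.38 for Nr4a1 (adjusted p = 0.393), 0.30 for Egr1 (adjusted p = 0.637) and -0.19 for Fos (adjusted p = 0.635), so Fos alone was below 0. Leaving out 1 rat at a time moved Arc between 0.669 and 1.01, with adjusted p from 0.0691, without heroin empty rat 21, to 0.338.

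Against H3.3 WT in heroin rats 0 of 5 genes were called beside 2.71% of all genes. The estimates were 0.57 for Arc (adjusted p = 0.431), 0.38 for Nr4a1 (adjusted p = 0.447), 0.35 for Junb (adjusted p = 0.348), 0.22 for Egr1 (adjusted p = 0.789) and -0.02 for Fos (adjusted p = 0.980), with a median of 0.349 against 0.00298 over all genes. In saline rats H3.3Q5A vs. empty gave 0 of 5 calls beside 4.94% of all genes. The estimates were -0.28 for Fos, -0.26 for Nr4a1, -0.26 for Junb, -0.21 for Egr1 and 0.22 for Arc, with adjusted p from 0.412 to 0.763. H3.3Q5A vs. H3.3 WT in saline rats gave 0 of 5 beside 0.00886% of all genes, with -0.10 for Junb, -0.07 for Nr4a1, -0.0067 for Egr1, 0.03 for Arc and 0.09 for Fos and adjusted p from 0.890 to 0.998.

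H3.3 WT vs. empty is the control for the extra histone itself. After saline 0 of 5 genes and 0% of all genes were called, although 3788 genes of 22570 tested reached an unadjusted p under 0.05, and voom called 0 as well. Fos had the lowest adjusted p of the 5 there, with -0.37 (SE 0.201, 95% interval -0.78 to 0.03, adjusted p = 0.337) and 1 of 7 H3.3 WT rats above the saline empty mean. Egr1 had -0.20, Nr4a1 -0.20, Junb -0.16 and Arc 0.18, with adjusted p from 0.719 to 0.836. After heroin 0 of 5 and 0% of all genes were called, with 1277 genes at an unadjusted p under 0.05 and 0 called by voom, and the estimates were -0.17 for Fos, -0.0057 for Nr4a1, 0.05 for Junb, 0.08 for Egr1 and 0.21 for Arc, with adjusted p from 0.903 to 1.

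The interaction asks whether the heroin effect differs between H3.3Q5A and a control vector. Against empty, 0 of 5 genes were called where 14% of all genes were, and the 5 estimates were above 0 with a median of 0.561 beside 0.0186 over all genes. Junb came nearest to a call, with 0.65 (SE 0.269, 95% interval 0.11 to 1.19, unadjusted p = 0.0196, adjusted p = 0.0951). Its heroin effect was -0.33 in empty and 0.32 in H3.3Q5A rats. Without heroin H3.3Q5A rat 40, the lowest of its group for Junb, the Junb interaction was 0.773 with an adjusted p of 0.0345 and was called. With 3 residual factors as covariates it was called with an adjusted p of 0.0379. These factors came from values with group means removed, so the estimate stayed at 0.65 and only its error changed. Over the 30 fits that each left out 1 rat the adjusted p reached 0.153, and over the 14 other alternatives it reached 0.167. Nr4a1 had 0.64 (adjusted p = 0.219), Arc 0.56 (adjusted p = 0.504), Egr1 0.51 (adjusted p = 0.484) and Fos 0.09 (adjusted p = 0.872). Against H3.3 WT 0 of 5 were called beside 7.93% of all genes, with a median of 0.450 against 0.00841. Arc had 0.54, Nr4a1 0.45, Junb 0.45, Egr1 0.23 and Fos -0.11, with adjusted p from 0.364 to 0.882.

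**Figure D4:**
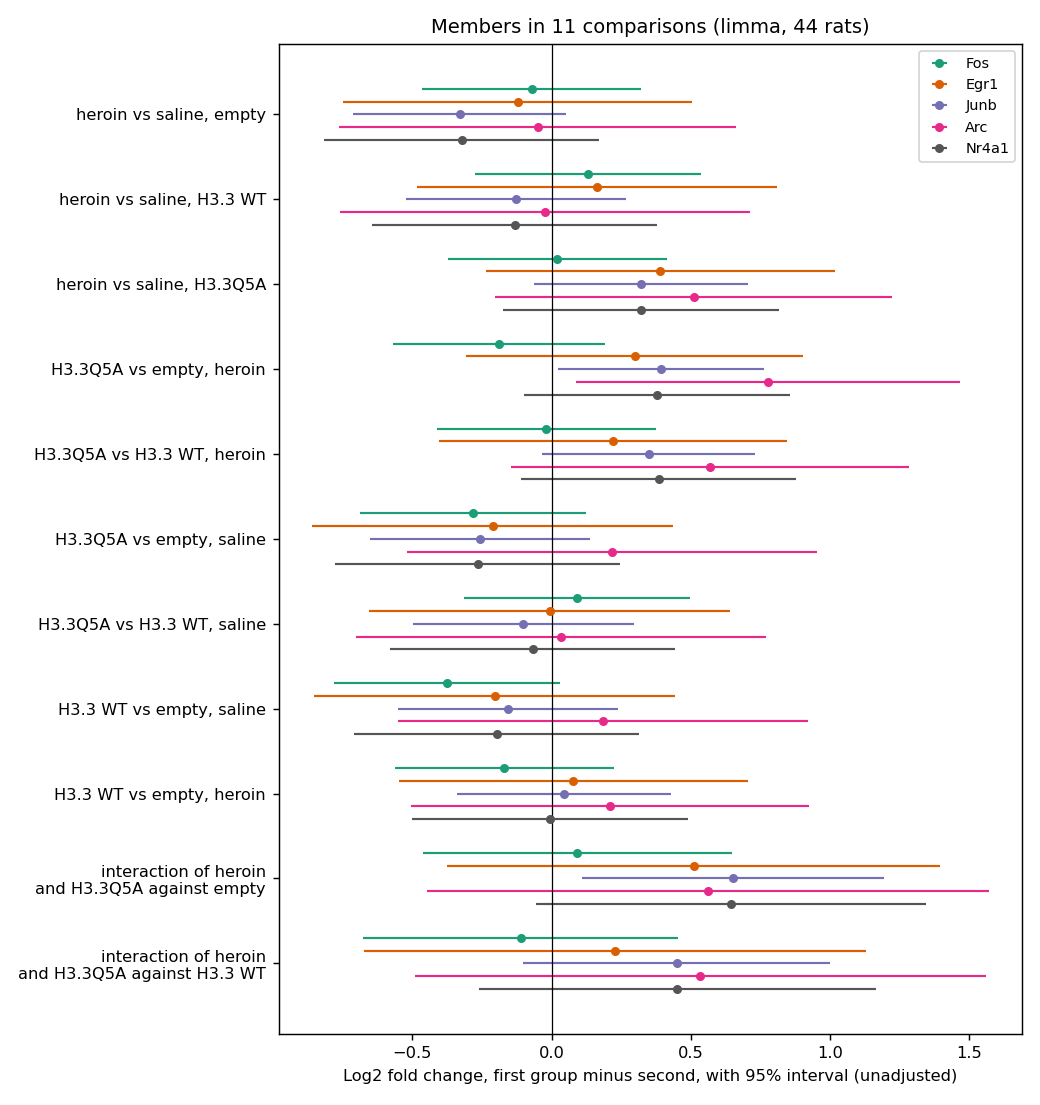
Log2 fold change of each gene (horizontal axis, first group minus second, with its unadjusted 95% interval) in the 11 comparisons (vertical axis), from the limma fit of 44 rats. The intervals of Arc and Junb in H3.3Q5A vs. empty after heroin and of Junb in the interaction against empty exclude 0, and no estimate passed adjustment over all genes.

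Egr1, Junb, Arc and Nr4a1 had their highest group mean in heroin H3.3Q5A, while Fos had its highest in saline empty and had a heroin H3.3Q5A mean below that of 3 other groups. The difference between another member and Fos was therefore taken in each rat. It keeps part of the shared variation, since the genes swing by unequal amounts, and the highest Arc minus Fos of all groups, 1.34, was in saline H3.3 WT. Junb minus Fos had a median of 0.450 in heroin H3.3Q5A (0.037 to 0.575) and of -0.218 in heroin empty (-0.387 to 0.0871). For Arc minus Fos the medians were 0.659 in heroin H3.3Q5A (0.0233 to 0.768) and -0.511 in heroin empty (-1.13 to 0.525). Egr1 minus Fos had a median of 1.60 (1.37 to 1.81) against 1.03 (0.610 to 1.61), and Nr4a1 minus Fos one of 0.370 (0.195 to 0.877) against -0.0279 (-0.595 to 0.173). In these 4 differences the heroin H3.3Q5A median was the highest of the 6 groups. The ranges of heroin H3.3Q5A and heroin empty overlapped except for Nr4a1 minus Fos, where they parted narrowly (lowest 0.195 against highest 0.173). Every remaining group overlapped heroin H3.3Q5A in Nr4a1 minus Fos. The highest rat of each such group lay between 0.272, for H3.3Q5A after saline, and 0.760, for H3.3 WT after saline. The share of other genes whose difference from Fos would part heroin H3.3Q5A from heroin empty was not computed. All 4 differences subtract the same Fos value, so a low Fos raises all of them at once. These differences were looked at after the values were seen and were not tested.

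Other immediate early genes and their regulators were listed as 84 genes, of which 7 could be named and tested: Myc, Ier3, Spry2, Gadd45g, Ccn1, Srf and Crtc1. Names came from the readable part of the study's own table of DEx genes, so these 7 were in part chosen on the same samples and are not independent evidence of a direction. None of the 7 listed AP-1 relatives of Fos and Junb was named, and the lists held 1 of 18 inducible transcription factors (Myc), 3 of 20 feedback regulators, 1 of 15 effectors and 2 of 24 upstream regulators. Of 77 tests, 8 were called, in 3 genes. By comparison the calls were 2 of 7 beside 2.75% of all genes for heroin vs. saline with H3.3 WT, 2 of 7 beside 7.93% and 1 of 7 beside 14% for the interactions against H3.3 WT and empty, and 1 of 7 beside 3.21%, 2.71% and 4.94% for H3.3Q5A vs. empty after heroin, vs. H3.3 WT after heroin and vs. empty after saline. In the other 5 comparisons 0 of 7 were called.

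Ier3, a feedback regulator of ERK signaling and cell survival, was called in 5 comparisons. It was higher in heroin H3.3Q5A than in heroin empty by 0.52 (SE 0.108, adjusted p = 0.00774) and than in heroin H3.3 WT by 0.48 (SE 0.112, adjusted p = 0.0147), and lower after heroin than saline in H3.3 WT rats (-0.48, SE 0.116, adjusted p = 0.0134). Its interaction was 0.75 against H3.3 WT (adjusted p = 0.0024) and 0.48 against empty (adjusted p = 0.0352). The call against empty in the interaction was lost without any 1 of 9 of the 30 rats, with adjusted p up to 0.0719 (saline empty 42, 15 and 13, saline H3.3Q5A 47 and 31, heroin empty 7, heroin H3.3Q5A 43, 26 and 25), and under 4 of 14 processing alternatives (no filter, median centring, quantile normalization and the read total as a covariate), with adjusted p up to 0.0949. The call against heroin H3.3 WT was lost without heroin H3.3Q5A rat 26 or 25 (adjusted p up to 0.0628), and that of heroin in H3.3 WT rats without saline H3.3 WT rat 4 (adjusted p = 0.0508). Both were also lost with only the groups compared in the fit, at adjusted p of 0.0785 and 0.0517. Ccn1, a secreted matrix protein, was lower after heroin than saline in H3.3 WT rats by 0.60 on the log2 scale (SE 0.168, adjusted p = 0.0395). It had an interaction of 0.84 against H3.3 WT (SE 0.234, adjusted p = 0.0195). Both calls use the saline H3.3 WT group, which stood 0.48 above saline empty (adjusted p = 0.193). Saline H3.3Q5A differed from that group by -0.66 (adjusted p = 0.105). Heroin vs. saline for Ccn1 was -0.02 in empty rats (adjusted p = 0.974) and 0.24 in H3.3Q5A rats (adjusted p = 0.422). The Ccn1 heroin call was lost without saline H3.3 WT rat 50, 49, 44, 23 or 8 or heroin H3.3 WT rat 38, 11 or 9, with adjusted p up to 0.118. It was also lost under 6 of 14 processing alternatives (no filter, median centring, quantile normalization, the read total as a covariate, only the groups compared, and the conflicting library counted as H3.3 WT), with adjusted p up to 0.212, and its interaction call was lost with the conflicting library counted as H3.3 WT (adjusted p = 0.0657). Spry2, an inhibitor of receptor tyrosine kinase signaling, was higher in H3.3Q5A than empty after saline by 0.28 (SE 0.0727, adjusted p = 0.0227), and the call was lost without saline empty rat 22 or 15 or saline H3.3Q5A rat 28, with adjusted p up to 0.0699. The 69 tests without a call gave estimates between -0.66 and 0.48, and both ends are the Ccn1 values in saline rats given above.

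Across rats the 7 listed genes followed the 5 to unequal degrees. Averaged over the 5, r was 0.588 for Ccn1, 0.522 for Gadd45g, a stress-inducible regulator of DNA repair and growth arrest, 0.487 for Srf, which encodes the factor that binds the CArG box, and 0.389 for Crtc1, a coactivator of CREB. Myc had 0.293, Ier3 0.133 and Spry2 0.00256. Gadd45g followed Fos most (r = 0.675), and Srf followed Nr4a1 most (r = 0.698).

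By mean r with the 5 over the 44 rats, the closest gene outside them was ENSRNOG00000015719 (mean r = 0.830, with 0.887 for Nr4a1, 0.878 for Junb and 0.653 for Fos), followed by ENSRNOG00000046667 (mean r = 0.818). The tables used here give no name for either identifier or for the other 8 of the 10 closest genes, whose mean r was 0.703 to 0.812. Among the 3 closest genes of each member the 1 that is named was Apold1, an endothelial early response gene, with r = 0.691 to Fos.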

How the data were processed

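VTA punches of 44 rats, in 6 groups, were compared by RNA-seq. Groups follow the labels, and a library with conflicting labels was left out. The authors aligned reads with HISAT2 2.1.0 to Rnor_6.0, removed reads with several alignments, counted with featureCounts 2.0.1 and normalized with a DESeq2 wrapper (2.11.40.6). The authors deposited variance-stabilized values, on a scale close to log2, in which 5.73 stands for 0 reads. Inverting the transformation gave whole reads within 0.1 read for 100% of values up to 1000 reads, from which depth was taken and on which voom was run. Read numbers limit the precision, and intervals on them cover counting error only. The number of RUVr factors is not given in the sources used here.

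Values were fitted in R 4.3.3 with limma 3.58.1 (intensity trend, all 6 groups) on the 22570 genes that exceeded the lowest value in 7 or more grouped libraries. Correlations used 100000 permutations of rats within groups. The members, the lists and the tests were chosen with earlier results of these data known. All 5 genes were given in every comparison, and the closest genes by r were named where the study's table names them (1998 readable names). Listed regulators have values where called, and Ccn1 also in the comparisons around its calls. The largest uncalled changes of each comparison, also planned, are otherwise not listed. That table also holds the authors' fold changes and p-values, which were not used. Alternatives changed the filter, scaling, factors, depth, samples, weights, model, thresholds and conflicting library, and left out each rat. Rats are separate animals, and the labels pair none. The lowest chi-square per gene among 140 pairs of libraries of the same group was 11.1, and none was counted as a duplicate. Scripts were tested on simulated data. Promoters came from the RefSeq table of GRCr8.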

Additional observations from a re-analysis of the deposited data

Results flagged for a closer look

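In 5 of the 30 sets of values formed by 5 genes and 6 groups, 1 rat lay farther from the rest of its group than Dixon's 95% limit for the group size. Chance gives about 1.5 such sets, and the genes are correlated, so the sets are not independent.

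Saline empty rat 42 had an Arc value of 11.23, while the other rats of the group lay between 8.97 and 9.58. Saline H3.3 WT rat 23 had 12.97 for Egr1, against 10.24 to 11.42 in the others, and 12.02 for Arc, against 9.13 to 10.07. Heroin empty rat 21 had a Fos value of 10.63 where the others lay between 9.73 and 10.05. Heroin H3.3Q5A rat 40 was low for Junb, at 9.38, with the others between 10.1 and 10.74. All values are on the VST scale.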

How the results depend on the processing

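The mean r over the 10 pairs stayed between 0.787 and 0.870 over rank correlation, raw values, removal of the read number, centring, quantile normalization, depth-scaled read counts, 1 or 3 residual factors, each drug alone, both readings of the conflicting library, and leaving out each rat. No member was called in 10 of the 11 comparisons under any alternative, and of 1725 refits of a member 3 were called, all for Junb in the interaction against empty: with 3 residual factors (1 gene called), with an adjusted p under 0.1 (1 gene called) and without heroin H3.3Q5A rat 40, so that the count ranged from 0 to 1 when each rat was left out. The cause was not tested.

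Small estimates changed sign without being called. With median centring, the log2 read total as a covariate or quantile normalization the signs of these values turned: Arc in heroin vs. saline was 0.0133 and 0.0302 (centring and read total) in empty rats and 0.0393, 0.00868 and 0.0211 (centring, quantile and read total) in H3.3 WT rats, Fos in heroin vs. saline in H3.3Q5A rats was -0.0355, -0.00383 and -0.00612 in the same order, Egr1 in H3.3Q5A vs. H3.3 WT after saline was 0.0515 (centring) and 0.0143 (read total), and Fos in the interaction against empty was -0.0273 (centring). In H3.3Q5A vs. H3.3 WT after saline, Fos was -0.0173 with array weights and -0.00417 with voom, and Arc was -0.138 with array weights and -0.00276 with the conflicting library counted as H3.3 WT. Leaving out each rat in turn changed the sign of some estimates. In heroin vs. saline in empty rats the range was -0.275 to 0.0391 for Egr1 and -0.276 to 0.216 for Arc. In heroin against saline in rats given H3.3 WT the range was -0.0149 to 0.485 for Egr1, -0.238 to 0.0435 for Junb, -0.227 to 0.343 for Arc and -0.272 to 0.0982 for Nr4a1. In heroin vs. saline in H3.3Q5A rats the range was -0.0917 to 0.145 for Fos. In H3.3Q5A vs. H3.3 WT after heroin the range was -0.0927 to 0.105 for Fos. In H3.3Q5A vs. H3.3 WT after saline the range was -0.00157 to 0.254 for Fos, -0.137 to 0.316 for Egr1, -0.200 to 0.0708 for Junb, -0.0935 to 0.402 for Arc and -0.208 to 0.162 for Nr4a1. In H3.3 WT vs. empty after saline the range was -0.184 to 0.451 for Arc. In H3.3 WT vs. empty after heroin the range was -0.0989 to 0.233 for Egr1, -0.0645 to 0.140 for Junb and -0.0862 to 0.126 for Nr4a1. In the interaction against empty the range was -0.0200 to 0.216 for Fos. In the interaction against H3.3 WT the range was -0.273 to 0.0120 for Fos and -0.0953 to 0.405 for Egr1. Saline H3.3 WT rat 23 or saline empty rat 42 gave the highest or lowest value of several of these ranges.

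Counts of calls over all genes moved more than 1.5 times. With 3 residual factors they rose from 35, 620 and 114 to 2322, 1862 and 2412 for heroin vs. saline in empty, H3.3 WT and H3.3Q5A rats, from 724 and 611 to 2388 and 2190 for H3.3Q5A vs. empty and vs. H3.3 WT after heroin, from 1116 and 2 to 3146 and 1292 for the same after saline, from 0 to 1927 and 195 for H3.3 WT vs. empty after saline and heroin, and from 3149 and 1790 to 5327 and 3760 for the interactions. They were 0 for heroin vs. saline in empty and in H3.3Q5A rats with the read total as a covariate, 183 for the heroin effect in H3.3 WT rats with the conflicting library counted as H3.3 WT, and 130 and 0 for H3.3Q5A vs. empty and vs. H3.3 WT after heroin with only the groups compared. Leaving out each rat gave 0 to 1184, 323 to 1289 and 0 to 1464 for heroin vs. saline with the empty, H3.3 WT and H3.3Q5A vectors, 141 to 1621 and 138 to 1513 for H3.3Q5A vs. empty and vs. H3.3 WT after heroin, 166 to 2208 and 0 to 631 for the same after saline, 0 to 88 and 0 for H3.3 WT vs. empty after saline and heroin, and 2308 to 4014 and 1192 to 2512 for the interactions against empty and H3.3 WT. Of the 8 calls among the listed regulators, Ier3 in H3.3Q5A vs. empty after heroin and in the interaction against H3.3 WT was called under every alternative and without each rat, and the others were lost under at least 1. No paired analysis was possible because the groups compared share fewer than 2 numbers.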

Other observations

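The library with conflicting labels, which entered no group, had VST values of 9.58 for Fos, 11.05 for Egr1, 9.91 for Junb, 10.11 for Arc and 9.98 for Nr4a1, from 415 to 1254 reads. Each value lay within the range of both the saline H3.3 WT and the saline H3.3Q5A rats.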
